A study of Homo sapiens with 8 samples.

Results

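The genes described here are 10 genes of prostaglandin synthesis, breakdown and reception, out of 58206 genes in a deposited table of raw counts. They were chosen by symbol around PTGS2 and PLA2G4A, with the counts of these same 8 libraries known, so the choice rests on the contrast of the 2 groups. Their differences between the groups are therefore given as a description, with no p-value. All 10 symbols matched 1 identifier of the table each: PLA2G4A, PTGS1, PTGS2, PTGES, PTGES2, PTGES3, PTGR1, HPGD, PTGER4 and PTGER2. The mRNA libraries came from Alexander1, an established human hepatocellular carcinoma line whose own AXIN1 lacks the stretch that binds the kinase GSK3, and in which, per the series' design text, the Wnt pathway is always on. The parental group (labelled wt, Axin1 -) held 4 libraries. The other 4, called restored-labelled here (labelled Axin1 +), came from a derivative made with a retroviral Axin1 plasmid and clonal selection in hygromycin B. The design text describes that derivative as carrying full-length Axin1 at a physiological level. Both groups carry the deletion in their own AXIN1. The text on plasmid transfer and selection is attached to all 8 samples, and neither the transgene's promoter nor the number of clones is given in the sources used here. Nothing in the labels says that replicates were separate cultures, so the spread between them may be technical.

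Prostaglandins are short-lived lipid signals made from arachidonic acid. Phospholipase A2 enzymes free arachidonate from membranes, a cyclooxygenase converts it to the unstable intermediate PGH2, and terminal synthases turn that into prostaglandin E2 and related products. The products act on receptors of neighbouring cells or of the producing cell and are then inactivated by a dehydrogenase and a reductase. In liver and many epithelial tumours PTGS2, the inducible cyclooxygenase, is studied as a source of prostaglandin E2.

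Depth, the labels and the cell type were checked first. Library totals were 11232951 to 15263761 counts (parental) and 12372436 to 26400782 counts (restored-labelled), so that 3 counts corresponded to between 0.108 and 0.267 CPM (counts per 1000000 of the scaled library total). AXIN1 stood at 52.4 CPM ± 3.49 in the parental and 45.4 CPM ± 5.13 in the restored-labelled libraries (SD, n = 4 each). This is a log2 fold change (log2FC, restored-labelled over parental throughout) of -0.21 (SE 0.12), with an edgeR adjusted p = 0.267. Its mRNA thus gave no check of the labels, on which every direction below rests. All 9 hepatocyte markers entered the fit, with a summed level of 20318 to 24039 CPM in the parental and 16621 to 19777 CPM in the restored-labelled libraries. They did not move together: FGB and TTR rose (log2FC 2.05 and 1.76, edgeR adjusted p = 6.4e-05 and 0.0259), SERPINA1 fell from 16130 to 10358 CPM (log2FC -0.64, edgeR adjusted p = 0.0164), and the other 6 were not called. Among those 6, ALB had a log2FC of 1.51 (edgeR adjusted p = 0.211), AFP one of -1.14 (0.0538) and APOA1 one of -0.96 (0.0780). Those of APOB, APOH and HNF4A lay between -0.18 and 0.09. ALB stood at 13.8 CPM in restored-labelled replicate 1, against 445 to 681 CPM in replicates 2 to 4 and 46.7 to 208 CPM in the parental libraries. The calls of TTR and SERPINA1 were each lost without restored-labelled replicate 3 or 4, among other libraries (edgeR adjusted p = 0.0549 to 0.0662 and 0.0554 to 0.0650). Of the 4 simple epithelial markers KRT8 and KRT18 had means of 1815 CPM or more in both groups, CDH1 rose (log2FC 0.50, edgeR adjusted p = 0.0181, lost without restored-labelled replicate 4 at 0.0594), and EPCAM had at most 5 counts in any library. Among markers a pure culture should lack, 7 were of macrophages and leukocytes. CSF1R and CD3E had 0 counts in every library, and PTPRC, CD14, CD68 and CD163 had at most 11 in any. Only LYZ, the lysozyme gene, entered the fit, with means of 771 and 764 CPM (SD 238 and 108, n = 4 each). Of the 6 fibroblast markers COL1A2, COL3A1, LUM and DCN had at most 6 counts in any library. COL1A1 had up to 109 counts, with means of 1.11 CPM (parental) and 1.87 CPM (restored-labelled) and a log2FC of 0.81 (edgeR adjusted p = 0.308). PDGFRB fell from 1.69 ± 0.639 to 0.221 ± 0.162 CPM (SD, n = 4 each, log2FC -2.87, edgeR adjusted p = 0.0045, and -3.53 without restored-labelled replicate 1). Of the 5 endothelial markers, PECAM1 rose from 5.18 ± 0.951 to 48.2 ± 10.3 CPM (SD, n = 4 each, log2FC 3.22, edgeR adjusted p = 8.4e-06), while VWF, CDH5, KDR and TEK had at most 6 counts in any library. The part of these markers in the results below was not tested. In RNA from a whole culture, fewer cells of a type and less RNA per cell cannot be told apart.

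Of the 10 genes, 7 passed the filter on low counts and entered the fit: PLA2G4A, PTGS2, PTGES, PTGES2, PTGES3, HPGD and PTGER2. At the threshold used across the table (edgeR's quasi-likelihood test, adjusted p under 0.05), 4 of the 7 were higher and 1 was lower in the restored-labelled libraries. Over all 14289 genes tested, 19.2% were past that threshold, 10.4% higher and 8.77% lower. Because the genes were singled out in this contrast, nothing is read from the count. CPM ranges of the groups did not overlap for 4 of the 7 genes tested, and for 23.9% of all genes tested; nothing is read from this either. The genes that differed most by fold were the arachidonate-releasing phospholipase PLA2G4A, the inducible cyclooxygenase PTGS2 and the inducible prostaglandin E synthase PTGES, which stand in sequence in the synthesis of prostaglandin E2. Their constitutive counterparts differed far less or were hardly detected.

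**Figure D1:**
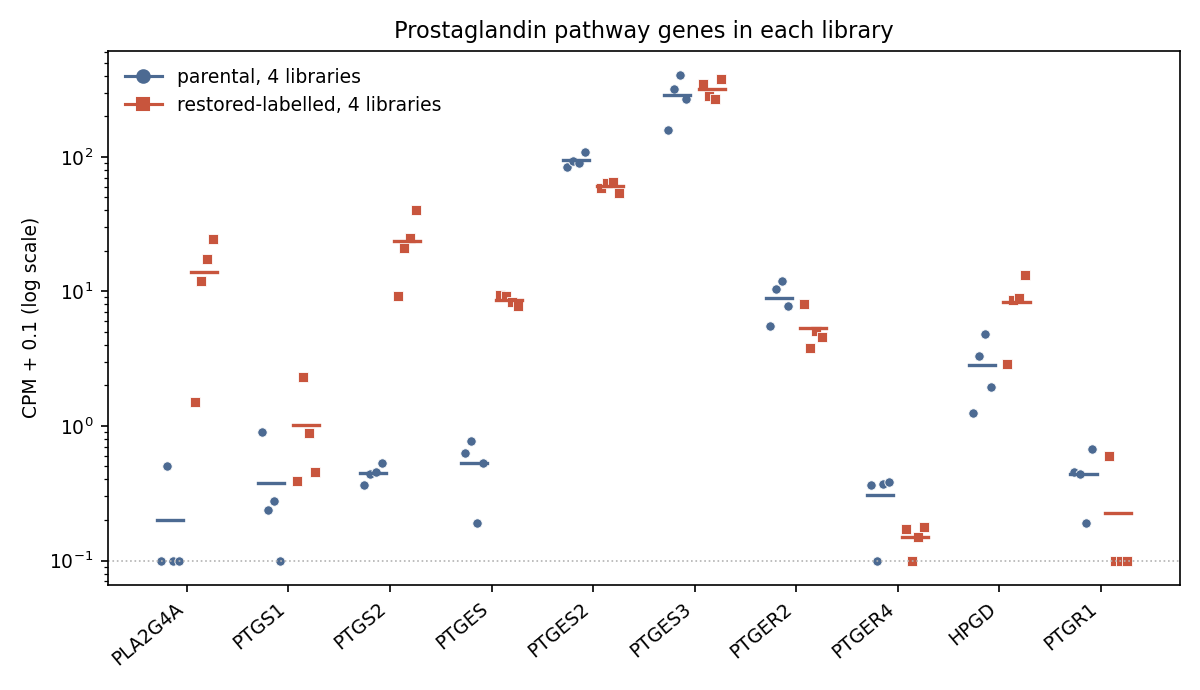
CPM + 0.1 on a log axis for the 10 genes, ordered from arachidonate release to breakdown. Circles are parental and squares restored-labelled libraries, 4 each, horizontal lines are group means and the dotted line marks 0 CPM. PTGS2 lies between 0.267 and 0.429 CPM in the parental and between 9.15 and 40.3 CPM in the restored-labelled libraries.

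The stretch of 250 bases before the RefSeq start is shown for the 3 genes that were near 0 in the parental libraries and expressed in the restored-labelled ones, since a shared promoter motif would be looked for there. The PTGS2 stretch lies at chr1:186680424-186680673 on the minus strand, that of PLA2G4A at chr1:186828699-186828948 on the plus strand and that of PTGES at chr9:129753043-129753292 on the minus strand (GRCh38.p14). All are written 5′ to 3′ with motif matches in capitals.
PTGS2: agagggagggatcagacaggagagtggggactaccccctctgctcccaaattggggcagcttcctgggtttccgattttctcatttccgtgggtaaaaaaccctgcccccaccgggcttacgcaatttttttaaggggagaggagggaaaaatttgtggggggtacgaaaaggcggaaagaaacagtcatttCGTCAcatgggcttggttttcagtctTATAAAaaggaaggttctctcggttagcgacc
PLA2G4A: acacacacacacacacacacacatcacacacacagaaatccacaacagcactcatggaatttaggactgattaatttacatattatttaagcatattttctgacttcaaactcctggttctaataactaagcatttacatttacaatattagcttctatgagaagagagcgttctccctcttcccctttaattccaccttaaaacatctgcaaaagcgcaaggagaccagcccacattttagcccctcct
PTGES: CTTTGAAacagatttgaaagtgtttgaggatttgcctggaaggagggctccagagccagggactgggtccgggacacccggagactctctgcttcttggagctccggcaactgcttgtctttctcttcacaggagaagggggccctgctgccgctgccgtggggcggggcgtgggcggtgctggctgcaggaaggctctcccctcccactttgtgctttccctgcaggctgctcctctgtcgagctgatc

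The motifs searched on both strands, from 250 bases before to 50 bases after the start, were the TCF/LEF site (CTTTGAA, also with the ending CTTTGAT, with the ending CTTTGTA and with the ending CTTTGTT), the CRE half-site (TGACG), AP-1 (TGANTCA), NF-kappaB (GGGANTTTC) and the TATA box (TATAAA). PTGS2 held a CRE half-site beginning at position -58 and a TATA box beginning at -32, counted from the start, and another CRE half-site after the start. Neither motif was particular to PTGS2: 4 of the 10 genes held a CRE half-site, the others being PTGES3, HPGD and PTGER2. A TATA box match was found in 2 of the 10, the other being PTGS1. A CRE half-site was present in 24.6% and a TATA box in 11.5% of all 35116 windows of the same length. The only TCF/LEF match among the 10 genes was that at the far end of the PTGES stretch, at -250, against 13.8% of all windows. PLA2G4A held none of the 5 motifs. No window of the 10 genes held a match to the AP-1 or NF-kappaB pattern searched, which 7.71% and 1.28% of all windows did. Sites that depart from these patterns were not searched for, so their absence cannot be read from this. The matches did not overlap one another, and no motif was shared by all 3 genes.

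Release of arachidonate was represented by PLA2G4A (ENSG00000116711, chromosome 1, 186828953 to 186988981, plus strand), which encodes cytosolic phospholipase A2, the calcium-activated enzyme that prefers arachidonate. It had 0 counts in parental replicates 1, 3 and 4 and 6 counts in parental replicate 2 (0.406 CPM). In restored-labelled replicates 1 to 4 it stood at 1.40, 11.9, 17.4 and 24.2 CPM, from 39, 144, 353 and 621 counts. All restored-labelled libraries were above all parental ones, with replicate 1 well below the other 3. Its log2FC was 6.81 (SE 1.06, 95% interval 4.47 to 9.14). Its size rested on the 6 counts of parental replicate 2: without that library the parental value was 0, and the difference was at least 55.0-fold against 3 counts per library.

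Conversion to PGH2 is carried out by the cyclooxygenases PTGS1 and PTGS2. PTGS2 (ENSG00000073756, chromosome 1, 186671791 to 186680427, minus strand) encodes the inducible form. Its parental values were 0.267, 0.339, 0.356 and 0.429 CPM, from 3 to 6 counts. The restored-labelled values were 9.15, 20.7, 24.8 and 40.3 CPM, from 255, 251, 504 and 1033 counts. The groups were far apart, and as for PLA2G4A the lowest restored-labelled value was in replicate 1 and the highest in replicate 4. Its log2FC was 6.05 (SE 0.51, 95% interval 4.94 to 7.17), and 23 of all tested genes, PTGS2 included, had a value at least as high. Without restored-labelled replicate 1 it was 6.32.

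PTGS1 (ENSG00000095303, chromosome 9, 122370530 to 122395703, plus strand), the constitutive cyclooxygenase, was too low to enter the fit. It had 9, 2, 2 and 0 counts in the parental and 8, 27, 16 and 9 counts in the restored-labelled libraries. The groups overlapped, with a highest value of 2.23 CPM in restored-labelled replicate 2. PTGS1 was thus the higher of the cyclooxygenases in no restored-labelled library.

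Beside PTGS2 lies the non-coding gene PACERR, transcribed from the opposite strand and known as a regulator of PTGS2, which begins 0.194 kb beyond the PTGS2 start. It had 0 counts in every parental library and 4, 5, 8 and 6 counts in the restored-labelled ones, too few for the fit. It was chosen for naming after its counts were seen. No exon of the 10 genes overlaps one of another gene in the annotation, PACERR included.

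The 3 prostaglandin E synthases behaved differently from one another. PTGES (ENSG00000148344, chromosome 9, 129738331 to 129753047, minus strand) encodes the membrane-bound, inducible synthase that works with PTGS2. Its parental values were 0.534, 0.677, 0.0891 and 0.429 CPM, from 1 to 10 counts, and its restored-labelled values were 9.36, 9.08, 8.18 and 7.73 CPM. The groups did not overlap, and the 4 restored-labelled libraries lay close together, replicate 1 included. Its log2FC was 4.25 (SE 0.36, 95% interval 3.46 to 5.05), a size reached in either direction by 84 of all tested genes.

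PTGES2 (ENSG00000148334, chromosome 9, 128120693 to 128128462, minus strand) encodes another membrane-associated synthase, regarded as constitutive. It stood at 84.4, 93.2, 89.4 and 108 CPM in the parental and at 58.9, 63.3, 65.3 and 53.3 CPM in the restored-labelled libraries. Every restored-labelled value was below every parental value. Its log2FC was -0.64 (SE 0.12, 95% interval -0.91 to -0.37). The differences of PTGES and PTGES2 were thus in opposite directions.

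PTGES3 (ENSG00000110958, chromosome 12, 56663341 to 56688408, minus strand) encodes p23, a cochaperone of HSP90 that is also described as cytosolic prostaglandin E synthase. Its values were 159, 318, 405 and 269 CPM in the parental and 349, 282, 267 and 381 CPM in the restored-labelled libraries. The groups overlapped over most of their range, and parental replicate 1 was the lowest. Its log2FC was 0.15 (SE 0.24, 95% interval -0.39 to 0.69), an interval that spans 0 and lies above the log2FC of PTGES2. Processed pseudogenes of PTGES3 could share its reads. The one with the most counts, PTGES3P1, had 9 to 42 counts in a library, against 1786 to 9750 for PTGES3 itself.

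Prostaglandin E2 acts on 4 receptors, of which PTGER2 and PTGER4 raise cAMP. PTGER2 (ENSG00000125384, chromosome 14, 52314305 to 52328606, plus strand), encoding EP2, stood at 5.43, 10.3, 11.8 and 7.66 CPM in the parental and 7.96, 3.71, 4.98 and 4.49 CPM in the restored-labelled libraries. The groups overlapped through parental replicate 1 and restored-labelled replicate 1. Its log2FC was -0.72 (SE 0.30, 95% interval -1.37 to -0.07), which was not past the threshold after adjustment over all genes, and was past it without parental replicate 1 (log2FC -0.89) and without restored-labelled replicate 1 (log2FC -0.99). PTGER4 (ENSG00000171522, chromosome 5, 40679498 to 40693735, plus strand), encoding EP4, had 3, 0, 3 and 4 counts in the parental and 2, 0, 1 and 2 counts in the restored-labelled libraries. No difference was detectable at this depth. With no expression filter, PTGER4, PTGS1 and PTGR1 were also tested and none passed the threshold.

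Breakdown of prostaglandins begins with HPGD (ENSG00000164120, chromosome 4, 174490177 to 174523154, minus strand), which encodes the dehydrogenase that inactivates prostaglandin E2. Its values were 1.16, 3.18, 4.72 and 1.86 CPM in the parental and 2.80, 8.50, 8.77 and 13.1 CPM in the restored-labelled libraries. Restored-labelled replicate 1 lay within the parental range and the other 3 lay above it. Its log2FC was 1.60 (SE 0.49, 95% interval 0.53 to 2.68). It was past the threshold in the fit described, but not in 7 of 15 alternative analyses: limma-voom, and leaving out parental replicate 1, 2 or 4 or restored-labelled replicate 2, 3 or 4, where its log2FC lay between 1.28 and 1.69.

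PTGR1 (ENSG00000106853, chromosome 9, 111549722 to 111599893, minus strand) encodes a reductase that acts on the dehydrogenase product and on leukotriene B4. It had 4, 5, 1 and 8 counts in the parental libraries. In the restored-labelled libraries it had 14 counts in replicate 1 (0.502 CPM) and 0 in the other 3, where 0 counts allow up to 0.248, 0.148 and 0.117 CPM. Replicate 1 thus resembled the parental libraries, and no fit was made at this level.

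**Figure D2:**
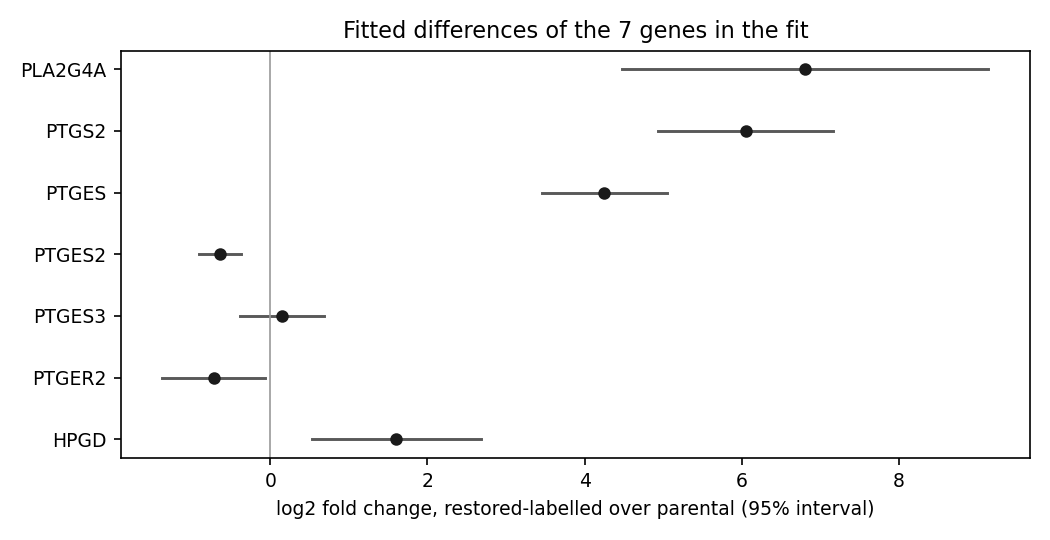
Log2 fold change, restored-labelled over parental, of the 7 genes in the fit, as points with 95% intervals. PLA2G4A (6.81), PTGS2 (6.05) and PTGES (4.25) lie far to the right, while PTGES2 (-0.64) lies to the left and the interval of PTGES3 spans 0.

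Levels per exon length (RPKM, here CPM per 1000 bases of annotated exon) put the genes on a common scale. In the parental libraries PTGES3 was the most abundant at 84.6 RPKM ± 30.2 and PTGES2 the next at 30.9 RPKM ± 3.35 (SD, n = 4 each). PTGER2 followed at 3.55 RPKM ± 1.14, and then HPGD at 0.494 RPKM ± 0.284 and PTGES at 0.228 RPKM ± 0.132, whose ranges overlapped. The other 5 genes had means between 0.0353 and 0.0902 RPKM and could not be ordered.

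In the restored-labelled libraries PTGES3 and PTGES2 again led, at 94.0 RPKM ± 15.9 and 19.8 RPKM ± 1.75. The next 3 genes were at nearly equal means: PLA2G4A at 4.78 RPKM ± 3.36, PTGES at 4.53 RPKM ± 0.402 and PTGS2 at 4.51 RPKM ± 2.45 (SD, n = 4 each), and their ranges overlapped. The range of PTGER2, 1.50 to 3.22 RPKM, overlapped those of PLA2G4A and PTGS2. In replicate 1 PLA2G4A stood at 0.487 RPKM, PTGS2 at 1.74 RPKM and PTGES at 4.94 RPKM. PTGER2 at 2.14 RPKM ± 0.752 and HPGD at 1.50 RPKM ± 0.765 overlapped each other. PTGS1 at 0.158 RPKM ± 0.156 lay below both, and PTGR1 and PTGER4 had means of 0.0334 and 0.0126 RPKM. In each of these libraries PLA2G4A, PTGS2 and PTGES were below PTGES2 and PTGES3.

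PTGS2 and PLA2G4A are neighbours on chromosome 1, separated by 149 kb, and the genes around that shared locus were examined. Within 2 Mb of either gene, 11 other genes were tested, of which 1 was higher and 0 were lower at an edgeR adjusted p under 0.05. The nearest, ODR4 and TPR, had log2FC values of 0.01 (SE 0.20) and 0.15 (SE 0.12). PRG4, which encodes the lubricant proteoglycan lubricin and lies 357 kb away, rose from 0.371 ± 0.120 to 2.16 ± 0.501 CPM (SD, n = 4 each, log2FC 2.52, SE 0.36, edgeR adjusted p = 0.0011). HMCN1 had a log2FC of 1.01 (SE 0.63, edgeR adjusted p = 0.288), IVNS1ABP one of -0.13 (SE 0.15), and the unnamed gene ENSG00000279838 one of -0.82 (SE 0.48). Without parental replicate 1 the log2FC of HMCN1 was 1.88 (edgeR adjusted p = 0.0352) and that of ENSG00000279838 was -0.19. Over the 40 tested genes nearest by order to PTGS2, the median log2FC was 0.14, with 7 of 40 higher and 0 lower. PLA2G4A is one of those 7. Around PTGES and PTGES2 on chromosome 9, the median over 40 such genes was -0.19 and -0.11, with 0 and 2 of 40 higher and 5 and 6 lower. The median around HPGD was 0.23, with 10 of 40 higher and 3 lower. That around PTGER2 was 0.13, with 4 of 40 higher and 0 lower. Over all genes tested, 10.4% were higher and 8.77% lower.

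**Figure D3:**
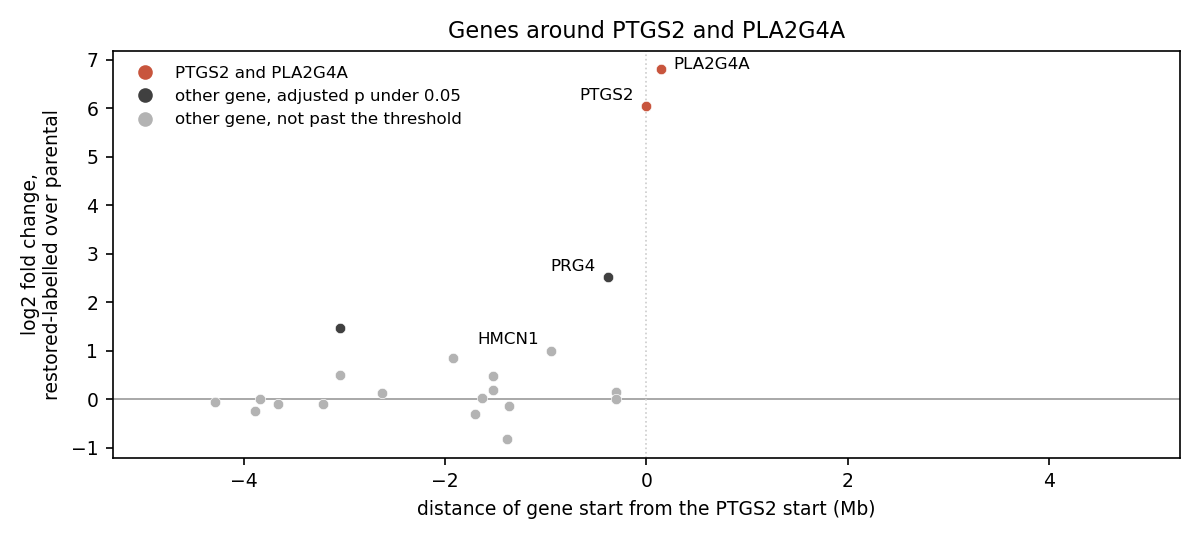
Log2 fold change, restored-labelled over parental, of tested genes within 5 Mb of PTGS2 and PLA2G4A, against distance of each gene's start from the PTGS2 start in Mb. PTGS2 (6.05) and PLA2G4A (6.81) stand above the genes drawn on their left, where PRG4 (2.52) is the highest, and no other tested gene lies in the stretch drawn on their right.

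Genes whose log2 CPM followed these genes most closely over the 8 libraries were looked for among 13551 genes with a mean of at least 1 CPM. Among those closest to PTGS2 were SLC44A5 (Pearson r = 0.997) and SMOC1 (r = 0.994). Both had at most 5 counts in any parental library and stood at 2.73 CPM ± 1.14 and 57.4 CPM ± 19.0 in the restored-labelled ones (SD, n = 4 each). For PLA2G4A they were VDAC1 (r = 0.988), EOLA2 (r = 0.988) and RUNX1 (r = 0.985), with log2FC values of only 0.39 (SE 0.12), 0.19 (SE 0.13) and 1.76 (SE 0.27). The correlation ignores the size of the difference, and the libraries differ in group and in depth, so these values describe likeness of pattern over 8 points.

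The rest of the pathway was followed through 8 lists with 139 other genes, of which 93 were tested. At an edgeR adjusted p under 0.05, 13 were higher and 6 lower, or 20.4% of those tested, against 19.2% of all genes. Their median log2 fold change was -0.03, against 0.00 over all genes tested. The pathway lists as a whole were thus called about as often as other genes. Without restored-labelled replicate 4 the 19 calls became 12.

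**Figure D4:**
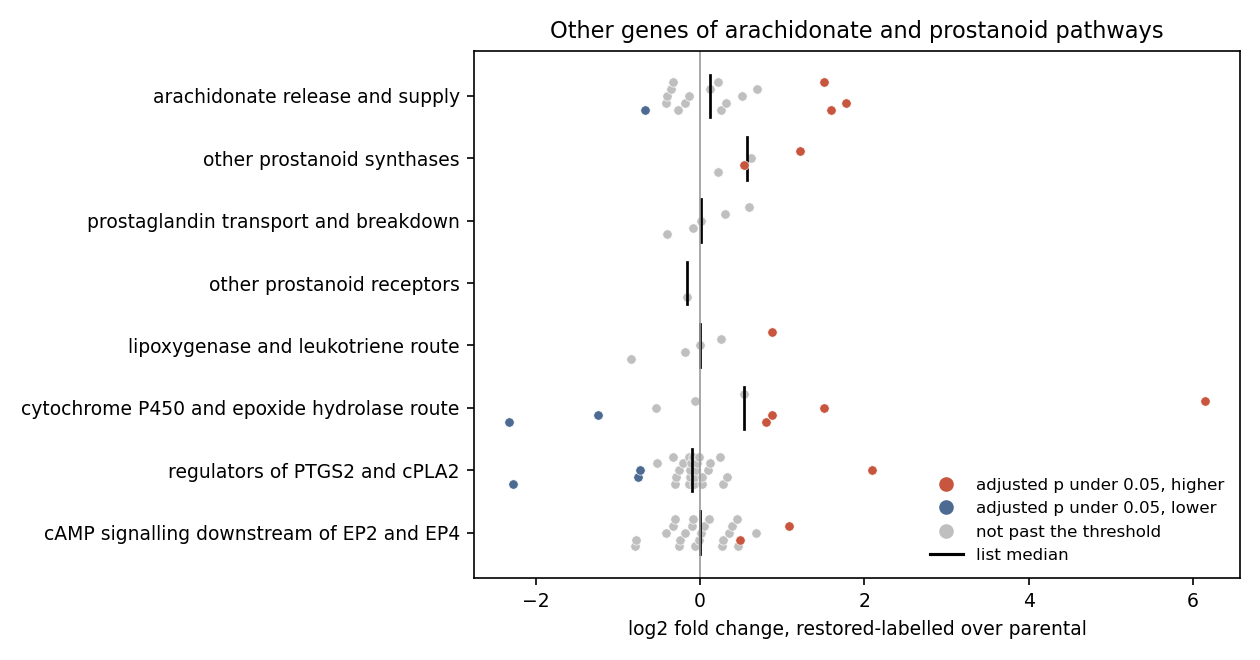
Log2 fold change, restored-labelled over parental, of the 93 other pathway genes tested, by list. Coloured points are past an adjusted p of 0.05 (red higher, blue lower), grey points are not, and black bars are list medians. The cytochrome P450 and epoxide hydrolase list has the most coloured points, with CYP4F11 at 6.15.

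Among 28 genes of arachidonate release and supply, 17 were tested, 3 were higher and 1 was lower. MGLL, encoding the lipase that cleaves 2-arachidonoylglycerol and can free arachidonate from it, rose from 19.3 ± 4.90 to 66.0 ± 13.0 CPM (SD, n = 4 each, log2FC 1.77, SE 0.22, edgeR adjusted p = 0.00046). DAGLA, encoding a lipase that makes 2-arachidonoylglycerol, rose from 3.12 ± 0.765 to 8.85 ± 2.24 CPM (SD, n = 4 each, log2FC 1.51, SE 0.26, edgeR adjusted p = 0.0030). The secreted phospholipase gene PLA2G2A rose at a low level, from 0.544 ± 0.247 to 1.69 ± 0.721 CPM (SD, n = 4 each, log2FC 1.59, SE 0.43, edgeR adjusted p = 0.0259), a call lost without parental replicate 2 or 3 or restored-labelled replicate 2 (edgeR adjusted p = 0.0615 to 0.0849). PLAAT3, another phospholipase gene, fell from 247 ± 38.1 to 156 ± 24.6 CPM (SD, n = 4 each, log2FC -0.67, SE 0.15, edgeR adjusted p = 0.0140), lost without restored-labelled replicate 4 (edgeR adjusted p = 0.0527). Of the other genes of the PLA2G4 family only PLA2G4C was tested, and it had a log2FC of 0.51 (SE 0.28, edgeR adjusted p = 0.223; 0.0229 without parental replicate 1). The other family members PLA2G4B, PLA2G4D, PLA2G4E and PLA2G4F had at most 9 counts in any library.

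Other prostanoid synthases numbered 9, of which 4 were tested and 2 were higher. AKR1B1, encoding an aldose reductase that can make prostaglandin F2α, rose from 35.3 ± 21.8 to 81.8 ± 1.11 CPM (SD, n = 4 each, log2FC 1.22, SE 0.31, edgeR adjusted p = 0.0208). Parental replicate 1 stood at 67.9 CPM, against 22.5 to 25.6 CPM in the other parental libraries. The call was lost without any 1 of those 3, or without restored-labelled replicate 3 or 4 (edgeR adjusted p = 0.0518 to 0.0629). CBR1, encoding a carbonyl reductase that converts prostaglandin E2 to F2α, rose from 153 ± 13.6 to 222 ± 29.0 CPM (SD, n = 4 each, log2FC 0.53, SE 0.13, edgeR adjusted p = 0.0175), a call lost without parental replicate 2 or 3 or restored-labelled replicate 3 (edgeR adjusted p = 0.0510 to 0.0659). AKR1C3, the most abundant gene of the list, had a log2FC of 0.62 (SE 0.30, edgeR adjusted p = 0.173; 0.0105 without restored-labelled replicate 1), and near-identical AKR1C genes can share its reads. The synthases of prostaglandin D2, prostacyclin and thromboxane (PTGDS, HPGDS, PTGIS and TBXAS1) had at most 2 counts in any library.

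Transport and breakdown gave 0 calls among 5 tested of 7 genes in edgeR (1 at an unadjusted p under 0.05, and 0 in DESeq2 and limma-voom). The exporter gene ABCC4 had a log2FC of 0.59 (SE 0.23, edgeR adjusted p = 0.0987). SLCO3A1, a transporter gene left out by the filter, was chosen for naming after its counts were seen. It had 0 counts in every parental library and 6, 2, 8 and 13 in the restored-labelled ones. Of the other 8 genes for prostanoid receptors and their partners, only PTGFRN was tested, with a log2FC of -0.16 (SE 0.25, edgeR adjusted p = 0.681). PTGER3, encoding the receptor EP3, which lowers cAMP, was left out by the filter and was chosen for naming after its counts were seen. It had 8, 43, 40 and 47 counts in the parental and 5, 2, 4 and 4 in the restored-labelled libraries, or 2.64 CPM ± 1.31 against 0.174 CPM ± 0.0179 (SD, n = 4 each), without overlap. Of the 4 receptors for prostaglandin E2, PTGER2 was the highest per exon length in each of the 8 libraries, at 1.50 RPKM or more, whereas the other 3 reached at most 0.369 RPKM.

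The lipoxygenase and leukotriene route had 15 genes, 5 tested and 1 higher. That gene, MGST3, encoding a microsomal glutathione transferase, rose from 81.1 ± 6.35 to 149 ± 20.3 CPM (SD, n = 4 each, log2FC 0.88, SE 0.13, edgeR adjusted p = 0.0014). ALOX5, ALOX5AP and LTC4S, which carry the route to leukotrienes, had at most 6 counts in any library.

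The cytochrome P450 and epoxide hydrolase route had 12 genes, 9 tested, 4 higher and 2 lower. CYP4F11 rose from 0.190 ± 0.118 to 14.3 ± 5.78 CPM (SD, n = 4 each, log2FC 6.15, SE 0.51, edgeR adjusted p = 3.8e-05). Its level was 5.74 CPM in restored-labelled replicate 1 and 16.3 to 18.1 CPM in the other 3. CYP4F12 rose from 23.4 ± 5.06 to 66.8 ± 15.7 CPM (SD, n = 4 each, log2FC 1.51, SE 0.21, edgeR adjusted p = 0.00097). CYP4F3, whose product inactivates leukotriene B4, rose from 83.9 ± 14.9 to 154 ± 14.9 CPM (SD, n = 4 each, log2FC 0.88, SE 0.15, edgeR adjusted p = 0.0027). These CYP4F genes lie together on chromosome 19 and are similar in sequence, so reads assigned to one may come from another. CYP4V2 fell from 10.5 ± 2.39 to 4.42 ± 0.936 CPM (SD, n = 4 each, log2FC -1.24, SE 0.24, edgeR adjusted p = 0.0055). The remaining 2 calls, outside the naming rule and given to complete the count, were EPHX1 (log2FC 0.80, SE 0.17, edgeR adjusted p = 0.0101), encoding microsomal epoxide hydrolase, and CYP2J2 (log2FC -2.32, SE 0.68, edgeR adjusted p = 0.0358), encoding an arachidonate epoxygenase. CYP2J2 stood at 1.90 CPM in restored-labelled replicate 1 and at 0.148 to 0.248 CPM in the other 3, and without replicate 1 its log2FC was -4.09. Its call was lost without any 1 of those 3 or of parental replicates 2, 3 and 4 (edgeR adjusted p = 0.0571 to 0.101).

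Known regulators of PTGS2 and of cytosolic phospholipase A2 formed a list of 32 genes, 28 tested, 1 higher and 3 lower, with a median log2FC of -0.10. ANXA1, encoding annexin A1, an inhibitor of phospholipase A2, rose from 19.8 ± 16.1 to 84.1 ± 17.1 CPM (SD, n = 4 each, log2FC 2.09, SE 0.43, edgeR adjusted p = 0.0081). Parental replicate 1 stood at 43.5 CPM, against 8.66 to 15.9 CPM in the other 3, and without it the log2FC was 2.83. The AP-1 transcription factor genes FOSL1 and JUN fell: FOSL1 from 69.4 ± 21.0 to 14.2 ± 14.0 CPM (SD, n = 4 each, log2FC -2.28, SE 0.55, edgeR adjusted p = 0.0173) and JUN from 76.4 ± 12.6 to 46.1 ± 14.6 CPM (SD, n = 4 each, log2FC -0.73, SE 0.21, edgeR adjusted p = 0.0358). NFKBIA, encoding the inhibitor of NF-kappaB and itself a target of it, fell from 81.9 ± 22.6 to 48.8 ± 8.41 CPM (SD, n = 4 each, log2FC -0.75, SE 0.20, edgeR adjusted p = 0.0252). FOSL1 stood at 34.5 CPM in restored-labelled replicate 1 and at 4.53 to 12.4 CPM in the other 3, and without replicate 1 its log2FC was -3.26. The calls of FOSL1, JUN and NFKBIA were all lost without restored-labelled replicate 4 (edgeR adjusted p = 0.0508, 0.0998 and 0.0821 in that order). That of NFKBIA was also lost without parental replicate 4 or restored-labelled replicate 3, and that of JUN without parental replicate 2 or 4 or restored-labelled replicate 1 or 3 (edgeR adjusted p = 0.0507 to 0.108). The cytokine genes IL1A, IL1B, IL6 and TNF, whose products induce PTGS2, had at most 4 counts in any library.

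Signalling by cAMP below the receptors EP2 and EP4 was followed through 28 genes, 24 tested, 2 higher and 0 lower. CREM, encoding a cAMP-responsive transcription factor, rose from 18.4 ± 1.68 to 25.7 ± 1.37 CPM (SD, n = 4 each, log2FC 0.48, SE 0.13, edgeR adjusted p = 0.0257). ADCY3, encoding an adenylate cyclase, rose from 3.43 ± 0.879 to 7.22 ± 2.86 CPM (SD, n = 4 each, log2FC 1.08, SE 0.30, edgeR adjusted p = 0.0283). The call of CREM was lost with no expression filter and without parental replicate 2 or 4 or restored-labelled replicate 2, 3 or 4 (edgeR adjusted p = 0.0527 to 0.0895). That of ADCY3 was lost without parental replicate 2, 3 or 4 or restored-labelled replicate 1, 3 or 4 (edgeR adjusted p = 0.0518 to 0.0794).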

How the data were processed

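RNA was sequenced from 4 parental and 4 restored-labelled samples, grouped by title. The submitters' processing notes name bcl2fastq, fastp 0.23.1, STAR 2.7.4 and GRCh38. The counting program, annotation and use of strand are not given in the sources used here. The authors deposited raw counts per gene; 0 columns belonged to no sample.

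Counts were analysed with edgeR 4.0.16 in R 4.3.3: filterByExpr (minimum count 10, minimum total 15), TMM scaling, and the two-sided quasi-likelihood test without covariates, with Benjamini-Hochberg adjustment over 14289 genes and a threshold of 0.05. Standard errors (SE) were derived from the F statistic as |log2FC| divided by its root. CPM uses TMM-scaled totals, and log2 CPM a prior count of 2. The fit was tested on simulated data. Intervals and count bounds (3 counts) cover only the error of these libraries.

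Positions and exon lengths come from GENCODE release 29 (GRCh38; 57943 of 58206 identifiers found), symbols from a name table (57495 found) and promoters from RefSeq (GRCh38.p14), which held all 10 genes. Protein sequences were not used here. Neighbours are the 20 tested genes on each side of a gene.

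The members and lists were chosen with earlier results of these data known. Named genes are the members, AXIN1, up to 4 called genes with the smallest p per list or else the 2 most abundant, the 3 most correlated with PTGS2 and with PLA2G4A, and genes near both. Others are stated to be chosen afterwards, or complete a count. Some genes that this rule names are not reported here. Each library was left out in turn as an alternative. The others were a threshold of 0.01, the replicate number as a blocking factor, scaling by DESeq2 size factors or by totals alone, omission of the expression filter, a filter on mean CPM (1 or more), and the tests of DESeq2 1.42.0 (Wald) and limma 3.58.1 (voom).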

Additional observations from a re-analysis of the deposited data

Results flagged for a closer look

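The check covered 114 groups of 4 libraries, for the 10 members, AXIN1 and most other genes given with values. Of these groups, 14 held a library set apart from the other 3 beyond Dixon's 95% limit for the gap relative to the group's range. For 4 values from a normal distribution, chance alone gives about 1 in 20 groups. That rate does not hold for counts near 0, as for PLA2G4A, PTGR1 and PTGER4 below, so nothing is read from the number flagged. For PLA2G4A, parental replicate 2 stood at 0.406 CPM, where the other parental libraries had 0. For PTGR1, restored-labelled replicate 1 stood at 0.502 CPM, where the other restored-labelled libraries had 0. For PTGER4, parental replicate 2 had 0 CPM, against 0.267 to 0.286 CPM in the others. AXIN1 was lowest in restored-labelled replicate 4, at 37.7 CPM. AKR1B1 was highest among parental libraries in replicate 1, at 67.9 CPM. CYP4F11 was lowest among restored-labelled libraries in replicate 1, at 5.74 CPM. CREM was highest among parental libraries in replicate 3, at 20.9 CPM. EPHX1 was highest among parental libraries in replicate 1, at 111.7 CPM, and TPR in replicate 4, at 183 CPM. Restored-labelled replicate 1 stood apart for 5 more genes: it was highest for CYP2J2, at 1.90 CPM, and for COL1A1, at 3.91 CPM, and lowest for AKR1C3, at 349 CPM, FGB, at 2257 CPM, and ENSG00000279838, at 0.610 CPM.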

How the results depend on the processing

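Over 15 alternative analyses, PLA2G4A, PTGS2, PTGES and PTGES2 kept their direction and their side of the threshold, with log2 fold changes of 5.67 to 6.32 for PTGS2, 3.95 to 4.57 for PTGES and -0.69 to -0.57 for PTGES2. The genes were singled out in this contrast, so nothing is read from their keeping that side. PLA2G4A lay between 6.37 and 10.9 with 1 library left out. The latter was without parental replicate 2 and against 0 counts, so its size is not set by observed parental counts. PTGES3 changed sign within its range of -0.05 to 0.36, HPGD lay between 1.28 and 1.98, and PTGER2 between -0.99 and -0.56. The number of genes called, 2738, ranged from 1394 (without restored-labelled replicate 4) to 3523 (without parental replicate 1) with 1 library left out, was 1508 without parental replicate 2 and 1531 without restored-labelled replicate 3, and was 964 at an adjusted p under 0.01. That of pathway genes, 19, ranged from 12 to 26 with the same libraries left out and was 8 at the stricter threshold. With 1 library left out ODR4 lay between -0.12 and 0.15, below 0 without parental replicate 4 or restored-labelled replicate 2 or 4, and the cause was not tested. ABCC4 passed the threshold without an expression filter (edgeR adjusted p = 0.0261) and without parental replicate 3 (0.0336). With the replicate number as a block, 2033 genes and 17 pathway genes were called, and PTGS2 stood at 6.02. The calls of PLA2G2A, CBR1, CREM, SERPINA1, CDH1 and VDAC1 were lost there (edgeR adjusted p = 0.0595, 0.0603, 0.0635, 0.0502, 0.0508 and 0.0956). Libraries of the same number deviated from their group means with correlations of -0.06, 0.007, -0.03 and 0.23, so the numbers were not taken as pairs. Depth limits PTGS1, PTGR1, PTGER4 and the parental levels of PLA2G4A, PTGS2 and PTGES, which rest on 10 counts or fewer per library.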
